A study of Hordeum vulgare with 18 samples.

Results

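Leaf transcripts of 2 Moroccan barley varieties, Laanaceur (M4) and Oussama (M5), were compared in 12 of the 18 libraries of the series, which were all libraries titled M4 (6) and all libraries titled M5 (6). Both are winter barleys with 6 rows of grain, and each is a cultivated variety with its own genetic background, so that the comparison is between unmodified genotypes. Seedlings were grown under high nitrate (HN, 5 mM) or low nitrate (LN, 0.5 mM). By the labels, the HN plants received nitrogen labelled with the heavy isotope 15N in the last day before sampling. The study's methods describe this labelling for the pots of both levels, so that it is not known to differ between them. The remaining 6 libraries came from Golden Promise (GP), a European spring barley with 2 rows that served as the laboratory reference, and 4 of them (GP HN replicates 2 and 4, GP LN replicates 2 and 3) were set beside the named genes.

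Each library held the leaf of 1 to 2 seedlings, and the 4 groups were M4 LN (replicates 1, 3 and 4), M4 HN (1, 2 and 4), M5 LN (1, 2 and 3) and M5 HN (1, 2 and 3). The replicate number was the harvest day: 9 November, 16 November, 22 March and 12 April for numbers 1 to 4. The labels give the same planting day in October for all these harvests, whereas the study states a fixed age of the plants at harvest. The labels thus do not settle the age of the plants. Harvest 4 held 2 M4 libraries and no M5 library, so that a difference between the varieties at that harvest could not be taken. M4 HN replicate 4 was titled HN while its treatment label named the low level, and the title was followed. In that library HORVU7Hr1G098550 (NRT2.10, a high-affinity nitrate transporter) had 3.68 CPM, against 3.01 and 3.53 CPM in the other M4 HN libraries and 8.97 to 35.9 CPM in M4 LN. The study lists this gene as higher under LN in M4, a choice made on these samples, so that its level is no independent check of the label. Across genes the library correlated at r = 0.986 with M4 HN replicate 2 and 0.982 with M4 HN replicate 1. With M4 LN replicates 4, 1 and 3 the values were 0.985, 0.976 and 0.970. CPM stands for counts per 1000000 gene reads. The tissue could not be checked against leaf markers, since the gene identifiers came without names.

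Depth was somewhat higher in M4 than in M5, with overlapping ranges. In units of 1000000 gene reads, M4 libraries held 14.6 to 22.3 (median 20.7) and M5 libraries 11.8 to 20.5 (median 16.9), so that 1 CPM stands for about that many counts. Genes took 76.3 to 77.2% of the reads of a library. Marker transcripts of M5, chosen without the library in question, came to 0.0374 to 0.402% of their M5 level in M4 libraries, and those of M4 to 0.0279 to 0.925% of their M4 level in M5 libraries. Each library thus carried at most a trace of the other variety. Within each group no library was a copy of another by its counts, and no pair of libraries of any group correlated above r = 0.988 across genes.

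Reads were counted against the genome of Morex, another barley variety. A variety that lacks a gene, or whose copy differs from Morex so far that its reads no longer map, gives a low count in the same way as a variety that does not transcribe it, and these cannot be told apart in counts. Lysine, threonine and the branched-chain amino acids are built in plastids. Aspartate kinase opens the path from aspartate, dihydrodipicolinate reductase (DHDPR) works in the branch that leads to lysine, and the bifunctional lysine-ketoglutarate reductase/saccharopine dehydrogenase (LKR/SDH) breaks lysine down. Isopropylmalate dehydrogenase (IPMDH) acts in leucine synthesis, threonine aldolase splits threonine, and branched-chain transaminases carry out the last step to leucine, isoleucine and valine.

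The varieties differed at 2164 of the 18532 tested genes (11.7%) over both nitrate levels, with 1283 genes higher in M4 (6.92%) and 881 lower in M4 (4.75%). A gene was called where edgeR's quasi-likelihood test gave a Benjamini-Hochberg adjusted p under 0.05, with the harvest in the model. Log2 fold changes (log2 FC) are M4 minus M5 throughout. The median log2 FC of all tested genes was -0.01, and the median size among called genes was 1.40. Among them, 895 genes had a log2 FC of at least 1 and 529 of at most -1. A size of 5 or more was reached by 152 genes higher in M4 and 151 genes lower in M4. In 1890 tested genes (10.2%) every library of one variety lay above every library of the other, and 1606 of these were called. Replicates were taken from separate plants, and the p-values measure the spread between these samples only.

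**Figure D1:**
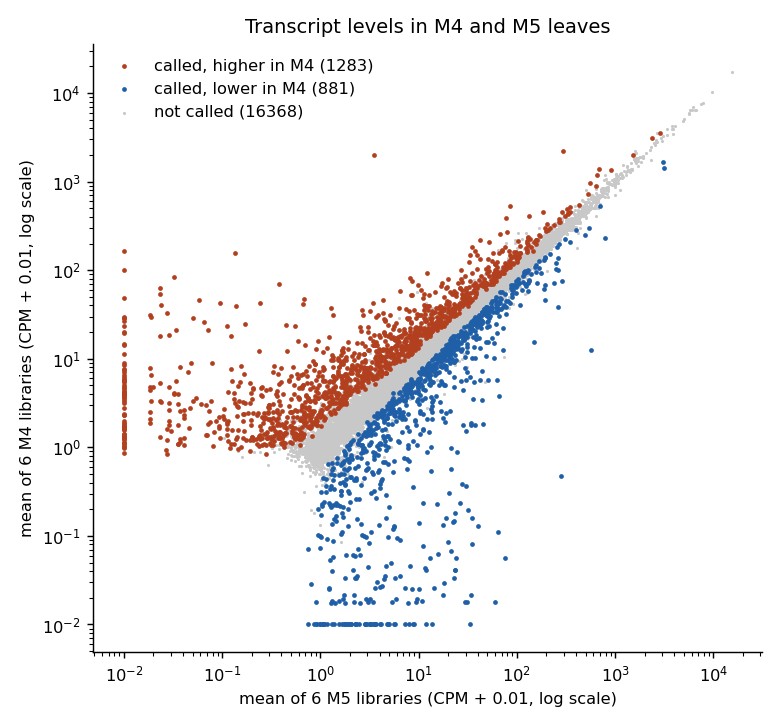
Mean transcript level in the 6 M4 libraries (vertical axis) against the 6 M5 libraries (horizontal axis), in CPM + 0.01 on log scales, with 1 point per tested gene. Red points are the 1283 genes called higher in M4, blue points the 881 called lower in M4, and points on the left or lower edge are genes with 0 counts in M5 or in M4.

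The variety set the libraries apart more than nitrate or harvest did. Across genes, log2(CPM + 1) correlated with a median r of 0.980 among the 15 pairs of M4 libraries (0.958 to 0.986) and 0.978 among the 15 pairs of M5 libraries (0.969 to 0.988). Between M4 and M5 libraries the median was 0.940 over 36 pairs (0.909 to 0.953), below every value within a variety. The first principal component took 54.2% of the variance and separated the varieties, and the second took 11.9%, with M4 LN replicate 3 far from the other libraries. M4 HN replicate 4, whose labels disagree, stood at -41.0 and 8.45 on them. That was closer to M4 LN replicates 1 (-42.7 and 1.55) and 4 (-48.2 and 5.55) than to M4 HN replicates 1 (-34.7 and 23.1) and 2 (-33.0 and 20.0). These values do not settle its label. Genes are not independent replicates, and these r values are descriptive.

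Some transcripts were counted in one variety alone. With 0 counts in all 6 M4 libraries and more than 1 CPM in every M5 library, 31 genes averaged 1.83 to 33.3 CPM in M5 (median 3.56). With 0 counts in all 6 M5 libraries and more than 1 CPM in every M4 library, 49 genes averaged 1.40 to 164 CPM in M4 (median 5.01). These counts depend on the limit, since with a mean under 0.05 CPM in place of 0 counts they were 79 and 92. GP carried most of the genes: of the 31 genes with no counts in M4, 19 were above 1 CPM in all 4 GP libraries and 5 were at 0 in all 4. Of the 49 genes with no counts in M5, 29 were above 1 CPM in all 4 GP libraries and 13 were at 0 in all 4.

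The largest rises in M4 were of this kind. HORVU6Hr1G092630 had 55.5, 168 and 232 CPM as lowest, median and highest value in M4, against 0 counts in all 6 M5 libraries, at least 5379-fold higher in M4 when M5 is set to a floor of 3 counts over its 6 libraries. It had 0 counts in the 4 GP libraries as well, so that M4 alone of the 3 genotypes gave reads there. HORVU7Hr1G059130 had 90.5, 99.8 and 112 CPM in M4 against 0 counts in M5, at least 3291-fold higher, and 141 to 155 CPM in GP. M4 stood slightly under GP at this gene (log2 FC of M4 minus GP -0.54 ± 0.10 SE, adjusted p = 0.0123). HORVU1Hr1G082090 had 37.4, 64.3 and 78.5 CPM in M4 against 0, 0 and 0.0814 CPM in M5, where 1 read was counted in all 6 libraries against 7338 in M4 (log2 FC 12.14 ± 0.34 SE, adjusted p = 6.89e-07). In these genes each M4 library exceeded each M5 library. Where a variety had no or only a few reads, here and below, the log2 FC and its SE depend partly on the prior count of the fit. Such an SE is no measured spread of the fold. The other large rises had 0 counts in M5: HORVU7Hr1G086120 at 28.8, 34.9 and 118 CPM in M4, HORVU7Hr1G085980 at 20.0, 27.2 and 43.9 CPM, HORVU2Hr1G118010 at 19.1, 30.1 and 33.1 CPM, HORVU2Hr1G123850 at 14.98, 30.1 and 37.2 CPM, and HORVU3Hr1G000050 at 18.9, 27.6 and 30.2 CPM. These were at least 868 to 1589-fold higher in M4. All 5 were transcribed in GP, where HORVU2Hr1G123850 was the lowest at 3.25 to 5.72 CPM.

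The largest falls mirrored this. HORVU3Hr1G023700 had 0 counts in the 6 M4 libraries against 30.2, 32.4 and 38.1 CPM in M5, at least 1304-fold lower in M4, and 25.6 to 35.7 CPM in GP. HORVU1Hr1G055320 had 0 counts in M4 against 11.2, 14.0 and 15.6 CPM in M5, at least 538-fold lower, and 19.4 to 26.1 CPM in GP. HORVU2Hr1G015080 had 0 counts in M4 against 8.37, 11.6 and 15.5 CPM in M5, at least 467-fold lower. GP had 0 counts at the last of these, so that M5 alone of the 3 genotypes gave reads there. HORVU1Hr1G048670 showed the same pattern at a higher level, with 1 read over all M4 libraries against 54.6, 60.7 and 64.7 CPM in M5 (log2 FC -11.92 ± 0.33 SE, adjusted p = 1.67e-07) and 0 counts in GP. HORVU6Hr1G091460 had 1 read over all M4 libraries against 5.06, 36.5 and 48.2 CPM in M5 (log2 FC -12.68 ± 1.51 SE, adjusted p = 0.00276), and 0 counts in GP. Its spread within M5 was wide. With 1 read in M4 each, HORVU7Hr1G021110 reached 27.2 to 41.0 CPM in M5, HORVU2Hr1G114870 25.1 to 34.1 CPM and HORVU4Hr1G048990 12.0 to 23.5 CPM. Of these 3, GP was at 0 for HORVU2Hr1G114870 only. The files gave none of these genes a name.

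The 5 most abundant called genes in each direction with a log2 FC of at least 1 in size followed. HORVU6Hr1G016890 had 1902, 2198 and 2421 CPM in M4 against 225, 263 and 420 CPM in M5, a ratio of means of 7.43 (log2 FC 2.93 ± 0.14 SE, adjusted p = 1.33e-06). GP lay at 2009 to 2697 CPM, in the range of M4. The next tested gene along the chromosome, HORVU6Hr1G016940, went the other way, with 1111, 1424 and 1712 CPM in M4 against 2411, 3062 and 4145 CPM in M5 (log2 FC -1.10 ± 0.16 SE, adjusted p = 0.00158). HORVU1Hr1G078380 had 1746, 1913 and 2484 CPM in M4 against 0.338, 3.46 and 8.87 CPM in M5, a ratio of means of 573 (log2 FC 9.38 ± 0.48 SE, adjusted p = 2.14e-06). In all 3 genes the varieties did not overlap. HORVU6Hr1G090560 had 9.25, 11.9 and 17.4 CPM in M4 against 259, 671 and 819 CPM in M5 (log2 FC -5.34 ± 0.32 SE, adjusted p = 6.02e-06). HORVU6Hr1G057240 had 0.234, 0.387 and 0.999 CPM in M4 against 107, 265 and 471 CPM in M5 (log2 FC -9.22 ± 0.62 SE, adjusted p = 1.27e-05). GP lay above all libraries of both varieties at HORVU6Hr1G090560, at 943 to 1392 CPM, and within the M5 range at HORVU6Hr1G057240. HORVU1Hr1G001890 had 198, 226 and 266 CPM in M4 against 330.1, 871 and 1054 CPM in M5 (log2 FC -1.65 ± 0.21 SE, adjusted p = 0.000747). HORVU4Hr1G087230 had 34.3, 73.4 and 122 CPM in M4 against 226, 277 and 362 CPM in M5 (log2 FC -2.01 ± 0.25 SE, adjusted p = 0.000687). These 4 genes also separated the varieties fully.

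The other 3 of these abundant genes higher in M4 were less firm. HORVU1Hr1G088900 had 99.7, 471 and 1045 CPM in M4 against 74.9, 78.7 and 116 CPM in M5 (log2 FC 2.63 ± 0.72 SE, adjusted p = 0.0464). HORVU7Hr1G085450 had 219, 506 and 567 CPM in M4 against 53.8, 201 and 252 CPM in M5 (log2 FC 1.29 ± 0.34 SE, adjusted p = 0.0389). The varieties overlapped at both, and each call was lost under 13 of 30 alternative analyses, which included leaving out single libraries of either variety. HORVU5Hr1G010130 had 212, 410 and 559 CPM in M4 against 21.7, 149 and 187 CPM in M5 (log2 FC 1.72 ± 0.44 SE, adjusted p = 0.0346), without overlap, and its call was lost under 8 of 29.

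Of the 8 genes of lysine synthesis, breakdown and transport that the study names, 5 were higher in M4, 1 was lower and 2 did not pass, beside 6.92% and 4.75% of all tested genes. Their median log2 FC was 1.96, against -0.01 over all tested genes. The study chose this list on these samples, so that it is not independent evidence of a direction. Under HN 4 were higher and 1 lower, and under LN 5 were higher and 1 lower.

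Between M4 and M5, an aspartate kinase gene and a DHDPR gene gave counts in M4 only. HORVU7Hr1G085930, an aspartate kinase, had 3.21, 2.86 and 4.80 CPM in M4 HN and 3.33, 3.66 and 4.46 CPM in M4 LN, against 0 counts in each of the 6 M5 libraries. That was at least 122-fold higher in M4 (adjusted p = 0.000731, with 0.00444 under HN and 0.0044 under LN). HORVU1Hr1G078290, a DHDPR, had 2.85, 3.99 and 6.26 CPM as lowest, median and highest M4 value against 0 counts in the 6 M5 libraries, at least 139-fold higher in M4 (adjusted p = 0.000824). GP carried both transcripts as well, and M4 did not differ from it by the test at either. For the aspartate kinase GP had 2.62 to 4.18 CPM (log2 FC of M4 minus GP 0.11 ± 0.25 SE, adjusted p = 0.826), and for the DHDPR 2.98 to 5.18 CPM (log2 FC of M4 minus GP -0.17 ± 0.23 SE, adjusted p = 0.691). These are low levels, resting on 426 and 480 reads over the 6 M4 libraries.

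The other reductases went in opposite directions. HORVU7Hr1G117980 had 0.809, 1.01 and 1.32 CPM in M4 against 0, 0.0256 and 0.0846 CPM in M5, or 121 reads in M4 against 3 in M5 (log2 FC 4.70 ± 0.61 SE, adjusted p = 0.000322). HORVU4Hr1G086020, the most abundant DHDPR of the list, had 27.9, 30.9 and 33.8 CPM in M4 against 40.4, 47.2 and 57.6 CPM in M5 (log2 FC -0.70 ± 0.11 SE, adjusted p = 0.00313). Neither overlapped between the varieties, and as a log2 FC the difference of the abundant gene was small beside those of the scarce ones. In CPM it was the larger: HORVU4Hr1G086020 averaged 31.0 CPM in M4 and 48.7 CPM in M5. HORVU7Hr1G117980 averaged 1.05 CPM in M4 and 0.0312 CPM in M5, and HORVU1Hr1G078290 averaged 4.22 and 0 CPM. GP had 29.7 to 31.4 CPM of HORVU4Hr1G086020, within the M4 range. The call of this gene was lost with the spring harvests alone (adjusted p = 0.339).

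Transcripts of lysine breakdown and of one transporter were also higher in M4. HORVU6Hr1G083050 (LKR/SDH) had 21.2, 25.8 and 76.3 CPM in M4 against 4.31, 7.59 and 12.9 CPM in M5 (log2 FC 1.88 ± 0.31 SE, adjusted p = 0.00353), without overlap. Under LN its log2 FC was 2.06 ± 0.44 SE (adjusted p = 0.0202) and under HN 1.70 ± 0.43 SE (adjusted p = 0.0523), and GP ranged widely, at 7.59 to 148 CPM. Its call over both levels was lost in the fits that included GP libraries (adjusted p up to 0.0935). HORVU2Hr1G123160, an LHT1 amino acid transporter that takes up lysine and histidine in Arabidopsis, had 0.985, 1.64 and 2.43 CPM in M4 against 0.241, 0.461 and 0.507 CPM in M5 (log2 FC 2.04 ± 0.33 SE, adjusted p = 0.00285). M4 was also above GP at this gene (log2 FC of M4 minus GP 2.27, adjusted p = 0.00123). The call of this gene between M4 and M5 was lost with the spring harvests alone (adjusted p = 0.110). The other LHT1 genes of the list did not pass. HORVU7Hr1G074660 had 75.9, 91.1 and 109 CPM in M4 against 18.8, 52.5 and 70.02 CPM in M5 (log2 FC 0.96 ± 0.37 SE, adjusted p = 0.146), without overlap. HORVU7Hr1G074640 had 24.0, 29.1 and 37.3 CPM in M4 against 4.27, 10.1 and 29.1 CPM in M5 (log2 FC 1.16 ± 0.45 SE, adjusted p = 0.147), with overlap.

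The 10 genes of threonine and branched-chain amino acid metabolism named by the study did not lean to one variety, with 1 higher in M4, 3 lower and 6 not passing, and a median log2 FC of -0.14. The study picked this list from the same samples too. The IPMDH genes held the extremes. HORVU3Hr1G000570 had 1.17, 1.78 and 2.86 CPM in M4 against 0, 0 and 0.0602 CPM in M5, or 211 reads in M4 against 2 in M5 (log2 FC 6.60 ± 0.59 SE, adjusted p = 4.79e-05). HORVU3Hr1G069300 had 0, 0.122 and 0.278 CPM in M4 against 16.9, 22.6 and 24.5 CPM in M5, or 15 reads in M4 against 2230 in M5 (log2 FC -7.41 ± 0.34 SE, adjusted p = 9.62e-08). Each variety thus had one IPMDH gene almost without counts, and GP had both, at 5.79 to 7.21 CPM of HORVU3Hr1G000570 and 10.3 to 14.1 CPM of HORVU3Hr1G069300. The most abundant IPMDH gene, HORVU3Hr1G059060, had 588, 900 and 1002 CPM in M4 against 568, 639 and 695 CPM in M5 and did not pass (log2 FC 0.23 ± 0.11 SE, adjusted p = 0.219). HORVU2Hr1G124400 (log2 FC -0.21) and HORVU7Hr1G066450 (log2 FC -0.20) did not pass either.

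Of the threonine aldolases, 2 were lower in M4. HORVU2Hr1G097910 had 12.7, 15.7 and 16.4 CPM in M4 against 21.3, 23.6 and 27.6 CPM in M5 (log2 FC -0.67 ± 0.12 SE, adjusted p = 0.00672). HORVU4Hr1G085690 had 14.3, 15.03 and 21.1 CPM in M4 against 22.4, 28.6 and 36.5 CPM in M5 (log2 FC -0.80 ± 0.15 SE, adjusted p = 0.00824). The varieties did not overlap at either, and both calls were lost without M4 HN replicate 2, where 1 gene of the list was higher and 1 lower. Both were also lost with the spring harvests alone (adjusted p up to 0.299 and 0.324 over these fits). The third, HORVU1Hr1G046630, did not pass (log2 FC 0.30 ± 0.18 SE, adjusted p = 0.347). The branched-chain transaminase HORVU3Hr1G032400 had 84.5, 110 and 128 CPM in M4 against 84.3, 116 and 142 CPM in M5 (log2 FC -0.08 ± 0.14 SE, adjusted p = 0.759). The varieties overlapped fully there, and both stood above GP at 3.51 to 5.67 CPM (log2 FC of M4 minus GP 4.60, adjusted p = 6.84e-08, and of M5 minus GP 4.63, adjusted p = 8.04e-08). The other transaminase, HORVU2Hr1G096380, did not pass (log2 FC 0.80 ± 0.23 SE, adjusted p = 0.0597).

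**Figure D2:**
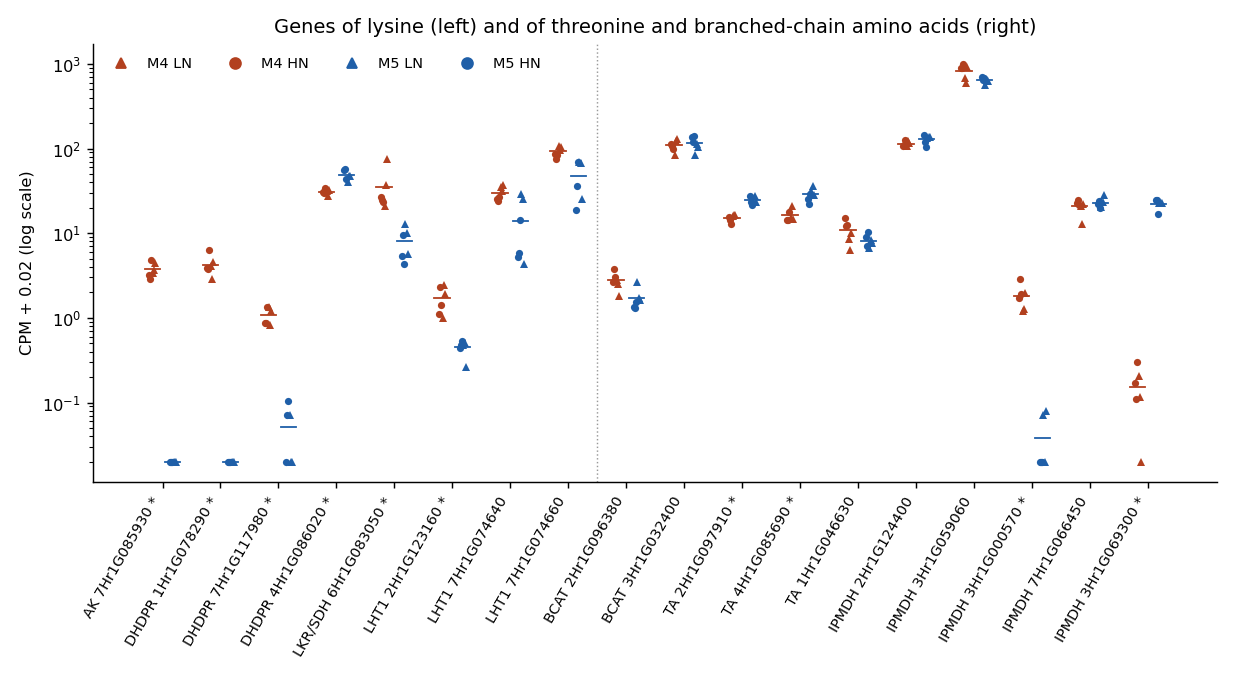
Transcript level in every M4 and M5 library (vertical axis, CPM + 0.02 on a log scale) for the 8 genes of lysine metabolism and transport on the left (AK, aspartate kinase) and the 10 genes of threonine and branched-chain amino acids on the right (BCAT, branched-chain transaminase; TA, threonine aldolase). Triangles are LN and circles HN libraries, short lines are means of the 6 libraries of a variety and asterisks mark called genes; the first pair of genes on the left lies at 0 counts in M5, and HORVU3Hr1G069300 on the far right lies below 0.3 CPM in M4.

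With the nitrate levels apart, M4 and M5 differed at 1585 genes under LN (8.55%), 949 higher in M4 (5.12%) and 636 lower (3.43%). Under HN they differed at 1083 genes (5.84%), 611 higher in M4 (3.3%) and 472 lower (2.55%). Called at both levels in the same direction were 884 genes, 55.8% of the LN calls and 81.6% of the HN calls. HORVU1Hr1G081410 and HORVU1Hr1G089510 were called in opposite directions, and 699 genes were called under LN alone and 197 under HN alone. Those last counts do not show that the varieties differed at one level only, because the change of the difference between LN and HN passed for 1 gene (0.0054%) with edgeR's quasi-likelihood test. An unadjusted p under 0.05 for that change was found in 923 genes, or 4.98% of those tested. That is close to the share that this threshold passes where nothing changes. With single libraries left out, however, the number ran from 458 of 18493 genes (without M5 HN replicate 2) to 1562 of 18437 (without M4 LN replicate 3). The share thus does not show that nothing changes. At the adjusted threshold, edgeR's likelihood ratio test called 41 genes and DESeq2 49. The HN count fell to between 586 and 631 without M5 HN replicate 2, M4 HN replicate 2, M4 HN replicate 1 or M5 HN replicate 1, and the LN count to 837 without M4 LN replicate 1 and 1016 without M5 LN replicate 3.

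A list of genes lower under LN was largely lower in M4 than in M5 under HN. The study lists 18 genes lower under LN in at least 2 genotypes, which were GP and M5 at every gene and never M4. The choice was made on these samples by a fall under LN, which passed in M5 at every gene and in M4 at none. The values of these genes are thus a description and no independent evidence of a direction. Under HN 13 of the 18 were lower in M4 than in M5 and none was higher, beside 2.55% and 3.3% of all tested genes, and all 18 had a negative log2 FC (median -2.05, against -0.01 over all tested genes). Under LN 1 was higher in M4, none was lower, and the median log2 FC was 0.21. The change of the difference from HN to LN had a median of 2.13 and was positive for all 18, a sign that the choice of the list favoured in advance. For this change, 1 gene was past the adjusted threshold. The HN count was 8 without M4 HN replicate 1 and 9 without M5 HN replicate 1.

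That gene was HORVU3Hr1G082580, a major facilitator superfamily protein, which belongs to a large family of membrane carriers. Under LN it had 14.7, 15.8 and 21.2 CPM in M4 (replicates 1, 3 and 4) against 8.29, 9.52 and 11.0 CPM in M5. Under HN it had 10.03, 15.8 and 16.4 CPM in M4 (replicates 1, 2 and 4) against 101, 76.1 and 84.0 CPM in M5 (replicates 1 to 3). M5 HN stood apart from the other 3 groups. The log2 FC was 0.71 ± 0.22 SE under LN (adjusted p = 0.0857) and -2.77 ± 0.22 SE under HN (adjusted p = 7.5e-05), and the change between them was 3.48 ± 0.30 SE (adjusted p = 0.0147). GP had 28.2 and 26.3 CPM under LN and 152 and 74.5 CPM under HN.

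Genes of basic helix-loop-helix (bHLH) proteins, a family of transcription factors, also had their highest levels in M5 HN among the 4 groups. HORVU3Hr1G108680 had 5.86, 0.666 and 4.07 CPM in M4 LN against 2.35, 2.77 and 5.54 CPM in M5 LN, and 4.5, 3.57 and 4.17 CPM in M4 HN against 149, 94.7 and 141 CPM in M5 HN. Its log2 FC was -0.25 ± 0.63 SE under LN (adjusted p = 0.847) and -5.05 ± 0.56 SE under HN (adjusted p = 0.000616). GP had 312 and 105 CPM under HN, so that the M4 HN libraries were the low ones of the 3 genotypes. HORVU2Hr1G013450 had 3.75, 4.19 and 3.51 CPM in M4 LN against 4.56, 2.77 and 8.73 CPM in M5 LN, and 3.51, 3.35 and 2.78 CPM in M4 HN against 92.7, 44.0 and 63.9 CPM in M5 HN. Its log2 FC was -0.54 ± 0.35 SE under LN (adjusted p = 0.376) and -4.16 ± 0.33 SE under HN (adjusted p = 8.04e-05). HORVU3Hr1G108670, beside the first of these in the gene order, had 0, 0.894 and 0 CPM in M4 HN against 84.3, 41.1 and 59.5 CPM in M5 HN (log2 FC -6.74 ± 1.01 SE, adjusted p = 0.00407). Its LN libraries were near 0 in both varieties. HORVU2Hr1G028530 moved less under HN (log2 FC -1.01, adjusted p = 0.0194).

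The same libraries were high at a more abundant member of the list. HORVU3Hr1G059130, which encodes an OBP3-responsive protein, had 47.8, 30.1 and 64.2 CPM in M4 LN against 38.9, 34.4 and 38.1 CPM in M5 LN, and 37.9, 43.3 and 51.6 CPM in M4 HN against 458, 207 and 386 CPM in M5 HN. Its log2 FC was 0.04 ± 0.28 SE under LN (adjusted p = 0.95) and -3.14 ± 0.29 SE under HN (adjusted p = 0.000196). The M5 HN libraries were the high ones again, without overlap under HN and with overlap under LN. A second major facilitator gene, HORVU3Hr1G082460 (log2 FC under HN -2.09 ± 0.37 SE, adjusted p = 0.00858), a beta-hydroxylase 1 of carotenoid synthesis, HORVU4Hr1G083400 (-2.52, adjusted p = 0.00157), and an F-box protein gene, HORVU3Hr1G078390 (-5.95, adjusted p = 0.00143), were also lower in M4 HN. Without M4 HN replicate 4, whose labels disagree, 12 members passed under HN, and with it counted as LN 13 did. Leaving it out also took M4 LN replicate 4, the only other library of that harvest, out of the comparison.

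**Figure D3:**
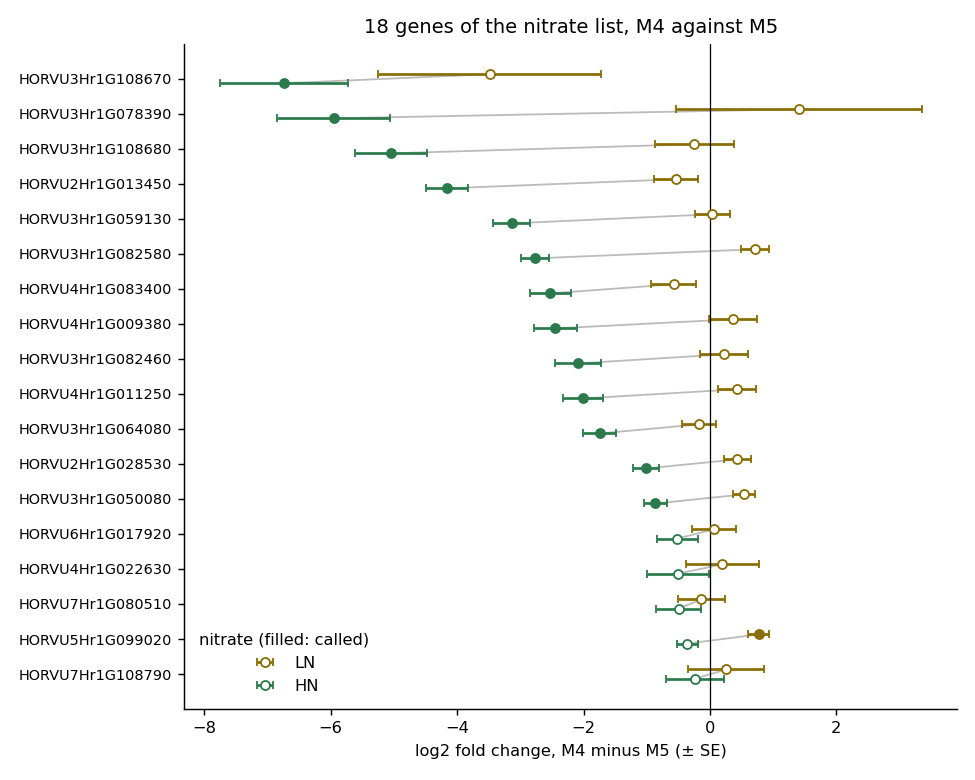
Log2 FC of M4 minus M5 (horizontal axis, ± SE) for the 18 genes that the study lists as lower under LN, under LN (brown) and HN (green), with filled points for called genes. The 18 HN values are all below 0 and 13 of them are called, whereas 1 LN value is called.

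The 19 genes that the study lists as higher under LN, again a choice made on these samples, did not move together. Over both levels 4 were higher in M4, 1 was lower and 14 did not pass (median log2 FC 0.45). Without M4 HN replicate 2 or M4 LN replicate 3, 1 was higher and 1 lower. HORVU2Hr1G007350 was the firmest, with 16.8, 23.1 and 31.9 CPM in M4 against 39.5, 49.6 and 68.4 CPM in M5 (log2 FC -1.16 ± 0.11 SE, adjusted p = 0.000101), and GP was higher than either at 140 to 168 CPM. HORVU5Hr1G047730, a ferritin that stores iron, had 100, 127 and 296 CPM in M4 against 28.6, 57.1 and 154 CPM in M5 (log2 FC 1.20 ± 0.27 SE, adjusted p = 0.0184). HORVU6Hr1G060720, of the cytochrome b561/ferric reductase type, had 89.3, 107 and 123 CPM in M4 against 44.8, 73.5 and 96.9 CPM in M5 (log2 FC 0.56 ± 0.10 SE, adjusted p = 0.00707). The varieties overlapped at both of these genes, and the call of HORVU6Hr1G060720 was lost under 4 of 30 alternatives, which included the spring harvests alone and the harvest-matched pairs (adjusted p up to 0.309). The ferritin call was lost under 6 of 30 alternatives (adjusted p up to 0.123). It was lost without M4 HN replicate 1 or 2, M4 LN replicate 3 or M5 HN replicate 1. The autumn harvests alone and the harvest-matched pairs lost it as well. HORVU1Hr1G057880 (eRF1-2, a translation release factor) had 1.58, 3.16 and 11.5 CPM in M4 against 0, 0.807 and 1.13 CPM in M5 (log2 FC 2.51 ± 0.51 SE, adjusted p = 0.0112), and its call was lost under 7 alternatives. The remaining gene called higher in M4, HORVU5Hr1G078960 (iron-sulfur cluster binding), was the least firm. Its call was lost under 17 of 30 alternatives, at a log2 FC of 0.355 to 0.927. The nitrate transporter NRT2.10, HORVU7Hr1G098550, did not pass (log2 FC -0.13 ± 0.60 SE, adjusted p = 0.932).

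A RAD-like 1 gene of this list, HORVU1Hr1G089510, was called in opposite directions. It had 1.27, 0.523 and 0 CPM in M4 LN against 4.76, 1.95 and 2.71 CPM in M5 LN (log2 FC -2.21, adjusted p = 0.0134), and 1.98, 0.268 and 0.209 CPM in M4 HN against 0, 0.103 and 0.0846 CPM in M5 HN (log2 FC 3.96, adjusted p = 0.026). These are 3 reads in M5 HN, and the change between the levels did not pass (adjusted p = 0.247). The HN call held in 16 of 26 alternatives and was lost without M4 HN replicate 1 or any one M5 HN library, and the LN call held in 19 of 26 and was lost without replicate 1 or 3 of M4 LN or of M5 LN. The nearby RAD-like 1 gene HORVU1Hr1G089490 had a log2 FC of -1.20 under LN (adjusted p = 0.0908) and 2.104 under HN (adjusted p = 0.0342), where the call held in 13 of 26.

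The gene identifiers follow the order of the genes along the 7 barley chromosomes, and differences between M4 and M5 were unevenly spread in that order. By chromosome the share of called genes ran between 9.21% (4H) and 14.4% (7H). With each chromosome cut by gene order into 5 equal parts, 15.5, 7.16, 8.74, 10.4 and 16.7% of the tested genes were called from the first to the last. The median level of tested genes in these parts was 14.7, 18.8, 18.8, 15.8 and 15.1 CPM, and the part of the level in the shares was not tested. On 7H the first part reached 26.5% and the last 21.1%, against 6.16% in the middle one. Not every chromosome was highest at both ends: the first part held 5.59% on 5H and 8.82% on 4H, and the last 10.9% on 1H, below the 15.6% of the part before it.

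In 356 windows of 50 tested genes a median of 10% was called. The highest window held 20 called genes of 50 (40%), on 7H between HORVU7Hr1G008210 and HORVU7Hr1G010340, 12 of them higher in M4 and 8 lower. In 33 windows at least 25% were called, and in 9 windows no gene was. The longest stretch without a call covered 111 tested genes on 2H (HORVU2Hr1G037220 to HORVU2Hr1G042490), followed by 110 on 5H and 102 on 3H.

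**Figure D4:**
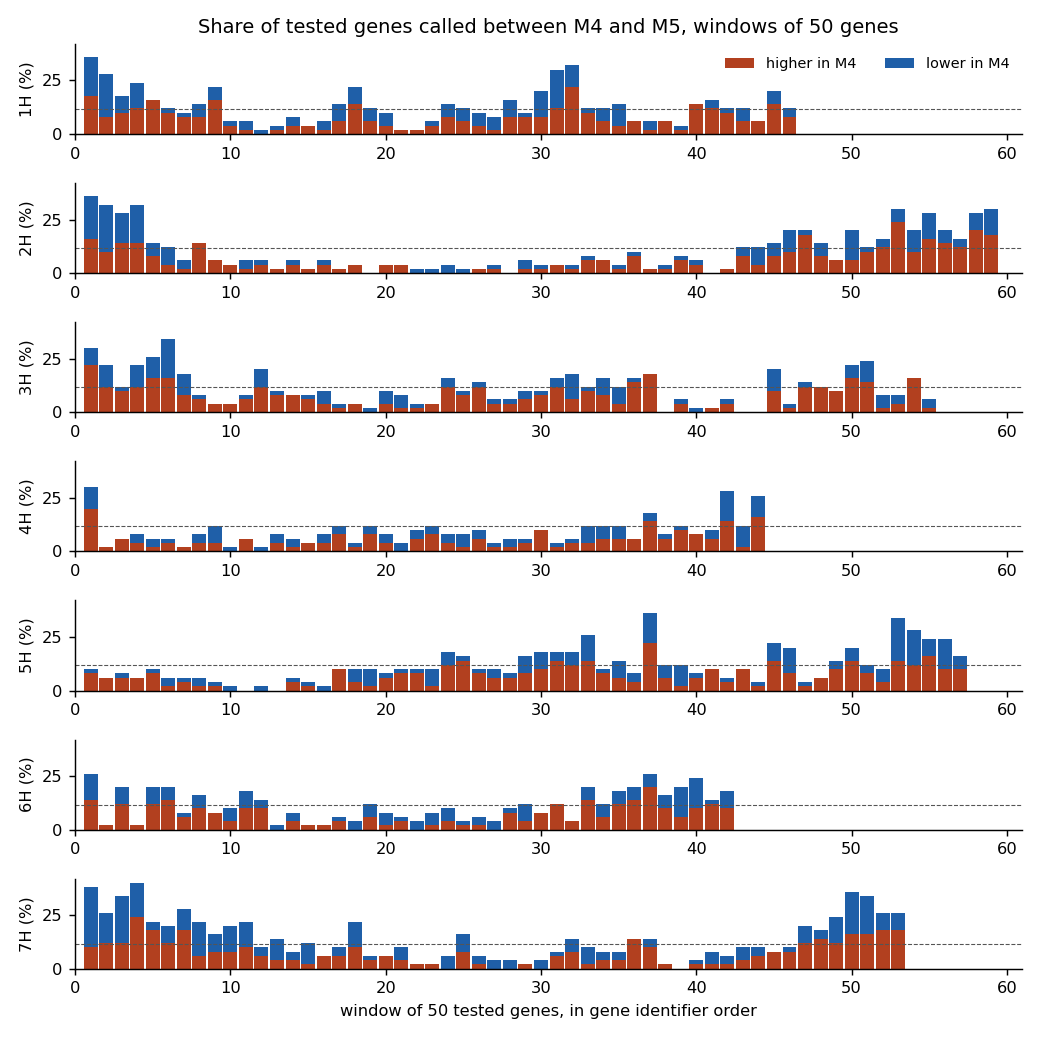
Share of tested genes called between M4 and M5 (vertical axis, %) in successive windows of 50 tested genes along each chromosome (horizontal axis, window number in gene identifier order), red for higher and blue for lower in M4. The dashed line is the share over all tested genes (11.7%); windows above 25% lie mostly near chromosome ends, and the first windows of 7H reach 38 and 40%.

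Called genes also formed runs. On the 7 chromosomes there were 9 runs of at least 5 neighbouring tested genes in which every gene was called, and these held 60 of the 2097 called genes placed there (2.86%). The longest run had 18 genes on 1H, HORVU1Hr1G067870 to HORVU1Hr1G068640, with 15 higher and 3 lower in M4. Together with 5 called genes just before it, all lower in M4, 23 of 24 neighbouring tested genes were called, and HORVU1Hr1G067840 was the exception. HORVU1Hr1G068640 averaged 70.01 CPM in M4 and 0.370 CPM in M5, HORVU1Hr1G068440 averaged 25.8 CPM in M4 and 0.0548 CPM in M5, and HORVU1Hr1G067980 averaged 6.59 CPM in M4 with 0 counts in M5. In the other direction HORVU1Hr1G067730 averaged 0.0195 CPM in M4 and 18.1 CPM in M5. HORVU1Hr1G068500 differed less, with 72.0 CPM in M4 and 25.1 CPM in M5. Genes with high, low and 0 counts thus stood side by side in both directions.

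**Figure D5:**
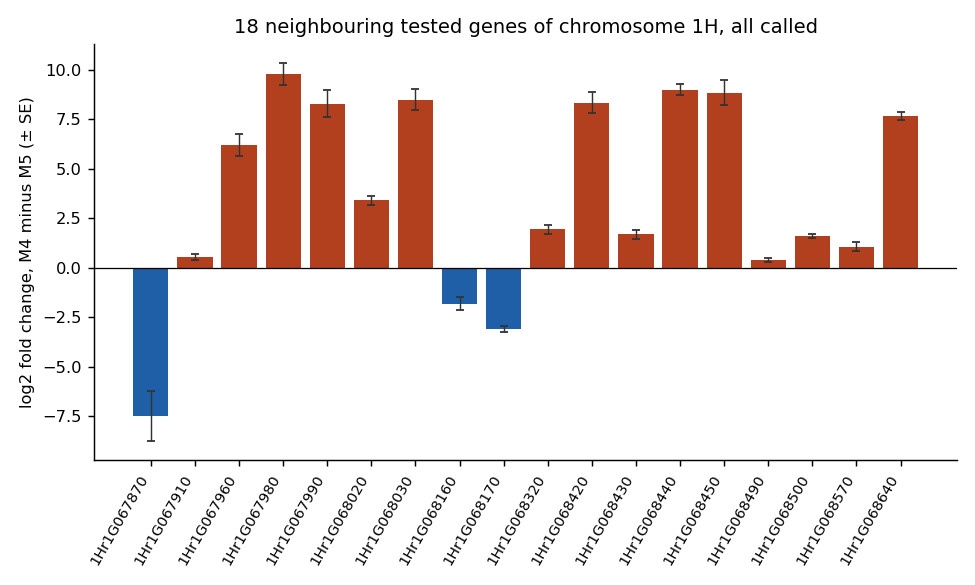
Log2 FC of M4 minus M5 (vertical axis, bars ± SE) for the 18 neighbouring tested genes of the run on 1H, in gene order. Red bars (15) are higher and blue bars (3) lower in M4. Where a variety had 0 counts, as M5 at HORVU1Hr1G067980, the height and its SE depend on the prior count of the fit and are no measured fold or spread.

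Among genes without a chromosome, whose identifiers establish no neighbours, 11 tested genes in succession were called, HORVU0Hr1G000760 to HORVU0Hr1G001180, with 9 genes higher and 2 lower in M4. HORVU0Hr1G000760 averaged 31.3 CPM in M4 and 0.00854 CPM in M5, and HORVU0Hr1G001170 averaged 0.0760 CPM in M4 and 19.8 CPM in M5. On 3H a run of 7 genes, HORVU3Hr1G077790 to HORVU3Hr1G077950, was higher in M4 throughout, at a log2 FC of 0.57 to 3.51.

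Around the 18 genes of amino acid metabolism, between 0 and 4 of the 10 nearest tested genes were called (median 2), beside 11.7% of all tested genes. Of the 10 tested genes around the aspartate kinase HORVU7Hr1G085930, 5 on either side, 3 were called and all were higher in M4. They included HORVU7Hr1G085980 and HORVU7Hr1G086120, which had 0 counts in M5 and are among the largest rises, while HORVU7Hr1G085970, the next tested gene, did not pass. Around the IPMDH gene HORVU3Hr1G000570 4 of 10 were called, all higher in M4, and around the other 4 IPMDH genes 0 to 2 of 10.

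The 4 pairs of an M4 and an M5 library from the same harvest and nitrate level (HN replicates 1 and 2, LN replicates 1 and 3) gave each gene's difference within a harvest. In all 4 pairs, 1222 of the 1283 genes called higher in M4 were higher in M4 (95.2%), and 837 of the 881 called lower were lower (95.0%). Over all tested genes, 5762 of 18532 went one way in all 4 pairs (31.1%). These pairs are part of the libraries that gave the calls and are no separate evidence. From the autumn harvests alone 2173 genes were called, and from the spring harvests alone 614. Neither fit had the harvest in the model, and the April harvest held M4 libraries only.

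Set against GP, M4 differed at 2853 of 18952 genes (15.1%) and M5 at 2334 (12.3%), in a fit of 16 libraries. These comparisons share the GP libraries.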

How the data were processed

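The authors made stranded mRNA libraries, sequenced them as single reads of 75 bases, trimmed with Trimmomatic, removed rRNA with sortMeRNA, and mapped and counted with STAR on the Morex genome (IBSC_v2). The deposited values are raw counts per gene for 43050 genes. Counts on the reverse strand, the one the kit reads, were used. Unmapped (1.71 to 2.16%), multimapped (14.9 to 16.7%), intergenic and ambiguous reads stayed out of library sizes, so that genes with near-identical copies are uncertain.

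The 12 libraries entered a model of edgeR 4.0.16 under R 4.3.3 (TMM normalisation, CPM above 1 in at least 3 libraries, quasi-likelihood test, Benjamini-Hochberg adjusted p under 0.05), which held the 4 groups and, following the study's methods, the replicate number. Each SE was taken as the absolute log2 FC over the root of its F value, so that at genes with few or no reads in a variety it depends on the prior count as well. The labels give each replicate number 1 harvest day. Deviations from group means correlated with a median of -0.07 over 13 pairs of the same number and 0.04 over 41 of different numbers.

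Members and lists were chosen with earlier results of these data known. Named genes are those of the study's lysine, branched-chain and nitrate lists, the 8 largest rises and falls at a mean of at least 10 CPM, the 5 most abundant calls each way with an absolute log2 FC of at least 1, and the interaction. Genes absent from one variety and all runs are also described, and their examples were chosen after their values were seen. GP replicate 1 libraries, which carry transcripts of other genotypes, were left out. Gene identifiers matched no entry of the gene table in hand, so sequences and coordinates are not given here. DESeq2 1.42.0 and limma 3.58.1 served as alternatives.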

Additional observations from a re-analysis of the deposited data

Results flagged for a closer look

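One difference between M4 and M5 itself differed between LN and HN. HORVU3Hr1G082580 is a major facilitator gene of the list that the study chose by a fall under LN, found in GP and M5. Its log2 FC of M4 minus M5 was 0.71 under LN and -2.77 under HN. The change between them was 3.48 ± 0.30 SE (edgeR quasi-likelihood test, adjusted p = 0.0147). Over 26 alternatives the change lay between 3.25 and 3.74, always positive, with adjusted p between 3.65e-21 and 0.209. It was past the threshold in 18 of them. The call was lost with M4 HN replicate 4 taken as LN (adjusted p = 0.0828), and without M4 HN replicate 1 or 4, any one of the M4 LN libraries, or M5 LN replicate 1 or 2. Harvest 4 held only replicate 4 of M4 HN and of M4 LN. With the harvest in the model, leaving out either took the other out of the comparison as well. Those alternatives are thus nearly the same fit (adjusted p = 0.209 and 0.208).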

How the results depend on the processing

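Without the replicate block, that is without the harvest in the model, 3286 genes were called over both nitrate levels, 2504 under LN and 4 for the change between levels. Under LN, 2463 were called in a fit of all 18 libraries and 2430 in one of 16 libraries, the last chosen after seeing the data. For the change between levels, the likelihood ratio test called 41, DESeq2 49, and the fit with M4 HN replicate 4 as LN 0. From the spring harvests alone, 614 genes were called over both levels, of which 81.3% were higher in M4, against 59.3% in all harvests. The spring fit did not have the harvest in the model. Its April harvest held M4 libraries only, so that variety and harvest are partly confounded in it. Leaving out 1 library in turn gave 1437 (without M5 HN replicate 1) to 2240 calls over both levels, 586 to 1442 under HN, 837 to 1698 under LN and 0 to 2 for the change. With a mean CPM under 0.05 in place of 0 counts, 79 genes had counts near 0 in M4 only and 92 in M5 only. With 0 counts in one variety and more than 5 CPM in every library of the other, the numbers were 5 and 16. Among genes that did not pass, HORVU2Hr1G124400 turned to a log2 FC of 0.034 in spring, HORVU3Hr1G032400 ran between -0.16 and 0.026 (without M4 LN replicate 1) and HORVU7Hr1G066450 between -0.30 and 0.040 (without M4 LN replicate 3) as single libraries were left out. Of the 50 named genes called over both levels, none changed direction in 1478 values, 29 kept the call in every alternative that gave a value, and 112 values lost it. Genes picked for the largest or most abundant differences made up most of the 29, so that their stability followed partly from the choice. Most called genes of the study's lists lost the call in some alternative. The lysine list had 3 genes higher and 0 lower in spring, and 7 and 1 without the block. With the 4 harvest-matched pairs alone, a fit chosen after seeing the data, 1478 genes were called, and 1 of the 18 genes lower under LN was called over both levels, against 8. The causes were not tested. Depth limits the genes near 1 CPM: 0 counts in a variety allow up to 0.0256 CPM in M4 and 0.0304 CPM in M5.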

Other observations

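M5 LN replicate 3 lay closer to M5 HN replicates 1 and 2 than to the other M5 LN libraries. On the first and second principal components it stood at 52.0 and 18.6, beside M5 HN replicate 1 at 50.6 and 16.9, against 36.1 and -13.4 for M5 LN replicate 1 and 33.4 and -27.8 for M5 LN replicate 2. It correlated with M5 HN replicate 1 at r = 0.988 across genes, as high as any pair, and its NRT2.10 level (HORVU7Hr1G098550) was 5.18 CPM, against 33.7 and 47.4 CPM in the other M5 LN libraries and 2.61 to 8.37 CPM in M5 HN. At the bHLH gene HORVU3Hr1G108680 it lay with the LN libraries, at 5.54 CPM. It was kept as labelled.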
